A study of Homo sapiens with 16 samples.

Results

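The genes described here are the long non-coding RNA genes MALAT1, NEAT1, TUG1, KCNQ1OT1, OIP5-AS1 and NORAD. They are 6 of the 28951 genes in the deposited expression table, found by matching their Ensembl identifiers to symbols in GENCODE 29, and all 6 passed the filter on low values. The genes were picked with earlier results of these libraries in view, namely a higher level of MALAT1 and NEAT1 with the drug combination, so for every member the change with the combination is given as a description with its standard error and no test. The study grew 4 human non-small cell lung cancer lines and sequenced total RNA after 48 hours with vehicle (DMSO) or with 5 µM MYCi975, which inhibits the transcription factor MYC, together with 25 µM TMP195, an inhibitor of class IIa histone deacetylases. The series names H460 and H1703 as responsive and HCC827 and H441 as non-responsive, and each line is a single established tumour line. Each of the 8 groups of line and treatment had 2 libraries, and the single agents were not analysed here. The labels do not say whether paired libraries were separate cultures, so SDs and p-values measure only the spread between libraries, which may be technical.

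Long non-coding RNAs are transcripts that are spliced and processed like messenger RNA, or left unspliced, without encoding a protein. MALAT1 is held in nuclear speckles, bodies rich in splicing factors, and its end is made by RNase P, which cuts off a small tRNA-like RNA. NEAT1, encoded beside it, is the scaffold on which paraspeckle proteins assemble. TUG1 is linked to repression by Polycomb complexes, and KCNQ1OT1 is made from 1 parental allele and silences genes around it in an imprinted domain. OIP5-AS1 binds the RNA-stabilising protein ELAVL1, and NORAD holds many binding sites for the Pumilio proteins, which shorten the life of messenger RNAs.

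The positions below are GRCh38 with GENCODE 29. MALAT1 (ENSG00000251562) covers chr11:65497688-65506516 on the plus strand, and NEAT1 (ENSG00000245532) lies 52.1 kb before it at chr11:65422774-65445540 on the same strand. TUG1 (ENSG00000253352) is at chr22:30969245-30979395 on the plus strand and is annotated as starting from a bidirectional promoter. KCNQ1OT1 (ENSG00000269821) is a single exon of 91.7 kb at chr11:2608328-2699994 on the minus strand, antisense to KCNQ1. OIP5-AS1 (ENSG00000247556) is at chr15:41283990-41309737 on the plus strand. NORAD (ENSG00000260032) is a single exon of 5.34 kb at chr20:36045622-36050960 on the minus strand. The table has 1 value per gene, so the short and long forms of NEAT1 are not separated. The library kit keeps strand, but the strand setting of the counting was not given in the sources used here, so reads of MALAT1 and its antisense RNA TALAM1, or of KCNQ1OT1 and the introns of KCNQ1, could not be told apart.

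Promoter sequences from RefSeq (GRCh38.p14, from 250 bases before to 50 bases after the RefSeq start, which differs from the GENCODE start given above for some genes) were found for MALAT1, TUG1, OIP5-AS1 and NORAD, and no entry was found for NEAT1 and KCNQ1OT1. They are shown because MYC, the target of MYCi975, binds the E-box CACGTG, which reads the same on both strands. The 4 windows lie at chr11:65497488-65497787 (plus strand), chr22:30969015-30969314 (plus strand), chr15:41283740-41284039 (plus strand) and chr20:36050911-36051210 (minus strand). Each is written 5′ to 3′ along its gene in lower case, with every E-box in capitals.
MALAT1: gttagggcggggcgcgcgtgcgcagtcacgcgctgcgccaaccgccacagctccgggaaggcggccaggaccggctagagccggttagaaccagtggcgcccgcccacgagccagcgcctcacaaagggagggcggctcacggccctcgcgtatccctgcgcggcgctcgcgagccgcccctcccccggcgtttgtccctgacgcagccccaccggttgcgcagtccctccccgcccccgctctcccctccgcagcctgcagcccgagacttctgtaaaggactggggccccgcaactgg
TUG1: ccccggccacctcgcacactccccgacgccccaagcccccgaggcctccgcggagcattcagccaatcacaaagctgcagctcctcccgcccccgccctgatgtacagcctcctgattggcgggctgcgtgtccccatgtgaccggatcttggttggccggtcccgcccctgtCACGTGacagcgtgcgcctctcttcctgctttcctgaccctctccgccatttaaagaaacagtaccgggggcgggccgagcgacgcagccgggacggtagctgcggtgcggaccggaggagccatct
OIP5-AS1: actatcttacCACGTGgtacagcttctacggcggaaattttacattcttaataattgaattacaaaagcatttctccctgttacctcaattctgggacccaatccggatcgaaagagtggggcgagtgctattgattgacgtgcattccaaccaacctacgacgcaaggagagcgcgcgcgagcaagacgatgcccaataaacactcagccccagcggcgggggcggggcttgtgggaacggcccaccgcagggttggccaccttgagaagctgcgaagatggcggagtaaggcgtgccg
NORAD: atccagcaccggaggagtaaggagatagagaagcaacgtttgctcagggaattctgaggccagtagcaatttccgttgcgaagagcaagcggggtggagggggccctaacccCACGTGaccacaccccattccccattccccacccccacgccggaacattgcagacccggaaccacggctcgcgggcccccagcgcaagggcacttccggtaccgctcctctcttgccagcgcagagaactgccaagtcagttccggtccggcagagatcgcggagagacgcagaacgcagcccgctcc
TUG1, OIP5-AS1 and NORAD each held 1 E-box, at positions -77, -240 and -138 counted from the RefSeq start of the window, while 7.26% of the 35116 RefSeq windows of this length held at least 1. MALAT1 held none here, nor in its other RefSeq window at chr11:65498795-65499094. The CRE TGACGTCA, the ATF4 element TGATGNAA and the AP-1 site TGANTCA, searched on both strands, were in none of the members' windows and in 1.85%, 3.62% and 7.71% of all windows. The CCAAT box was present 2 times in TUG1 and 2 times in OIP5-AS1, and 34.6% of all windows held it. These matches describe the letters in the windows and show no binding.

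NORAD is set apart from the other members by its Pumilio elements. Bases 1129 to 1248 of its transcript are printed with the 2 elements, TGTANATA, in capitals.
NORAD transcript: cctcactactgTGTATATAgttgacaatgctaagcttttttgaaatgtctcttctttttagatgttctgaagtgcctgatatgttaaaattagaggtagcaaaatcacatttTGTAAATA
The whole NORAD transcript of 5339 bases held 15 such elements, or 2.81 per kb, against a mean of 0.0888 per kb over 86337 GENCODE transcripts of at least 1000 bases. The longest transcripts of NEAT1, TUG1 and OIP5-AS1 held 6, 2 and 1, KCNQ1OT1 held 9 in 91667 bases, and MALAT1 held 0.

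The deposited values are on a log2 scale after the authors' normalisation for depth, and the lowest possible value, that of 0 reads, was 0.48. Reads recovered from them came to 8493271 to 13604150 per library, which leaves a member with a few reads, such as KCNQ1OT1 in HCC827 and H441, limited by counting error. The share of reads in genes of the mitochondrial genome was 14.3% to 15.7% in H460 with vehicle and 17.4% to 18.2% with the combination, and 12.1% to 13.5% against 15.4% to 17.1% in H1703. In HCC827 it was 21.2% to 22.6% with vehicle and 17.2% to 18.7% with the combination, and in H441 it stayed between 17.3% and 18.1%. Its part in the members' values was not tested. The lines differed in epithelial markers: EPCAM was at 0 to 9 reads in the vehicle libraries of H460 and H1703 and at 1781 to 4195 in HCC827 and H441, NKX2-1 at 0 to 6 and 843 to 1621, and KRT8 at 58 to 99 in H1703 against 17489 to 32438 in the other lines. Of 12 markers of blood, vessel, stromal and neuroendocrine cells, PTPRC, CD3E, CDH5, COL1A2 and DCN were not in the table, and the others stayed at or under 135 reads in any library. The libraries are bulk RNA, so fewer cells with a transcript and less of it per cell cannot be told apart.

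MALAT1 was the most abundant member in every group. On the log2 scale its vehicle libraries stood at 14.07 and 14.31 in H460, 15.56 and 15.38 in H1703, 15.44 and 15.76 in HCC827, and 16.37 and 16.59 in H441. With the combination they stood at 17.20 and 17.13 in H460, 17.70 and 17.37 in H1703, 16.32 and 16.26 in HCC827, and 16.95 and 16.88 in H441. Both combination libraries lay above both vehicle libraries in each line, and the 4 highest MALAT1 values of the series were the combination libraries of H460 and H1703. The difference was 2.97 ± 0.14 (log2, limma SE, n = 2 per group) in H460, or 7.85-fold, 2.06 ± 0.14 in H1703, or 4.18-fold, then 0.69 ± 0.14 in HCC827 and 0.43 ± 0.14 in H441. The order of the lines changed with it. H460 was the lowest of the 4 with vehicle and the second highest with the combination, and the distance between the lowest and highest line mean narrowed from 2.29 to 1.24 on the log2 scale.

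NEAT1, the paraspeckle scaffold, was higher with the combination in the same lines. Its vehicle libraries stood at 10.47 and 11.36 on the log2 scale in H460, 10.86 and 10.83 in H1703, 11.95 and 12.19 in HCC827, and 11.99 and 12.15 in H441. The combination libraries stood at 13.76 and 13.64 in H460, 12.50 and 12.20 in H1703, 12.61 and 12.62 in HCC827, and 12.65 and 12.33 in H441. No combination library of a line overlapped a vehicle library of that line, and the gap was narrowest in H441. The difference was 2.78 ± 0.24 (log2, limma SE, n = 2 per group) in H460 and 1.51 ± 0.24 in H1703, then 0.55 ± 0.24 in HCC827 and 0.42 ± 0.24 in H441, or 6.88-, 2.84-, 1.46- and 1.34-fold. The 2 H460 vehicle libraries were farther apart than the 2 libraries of any other group, and leaving out 1 of them in turn gave 2.34 and 3.23 in H460. In H441 the difference was 0.26 without combination replicate 1 and 0.58 without combination replicate 2.

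**Figure D1:**
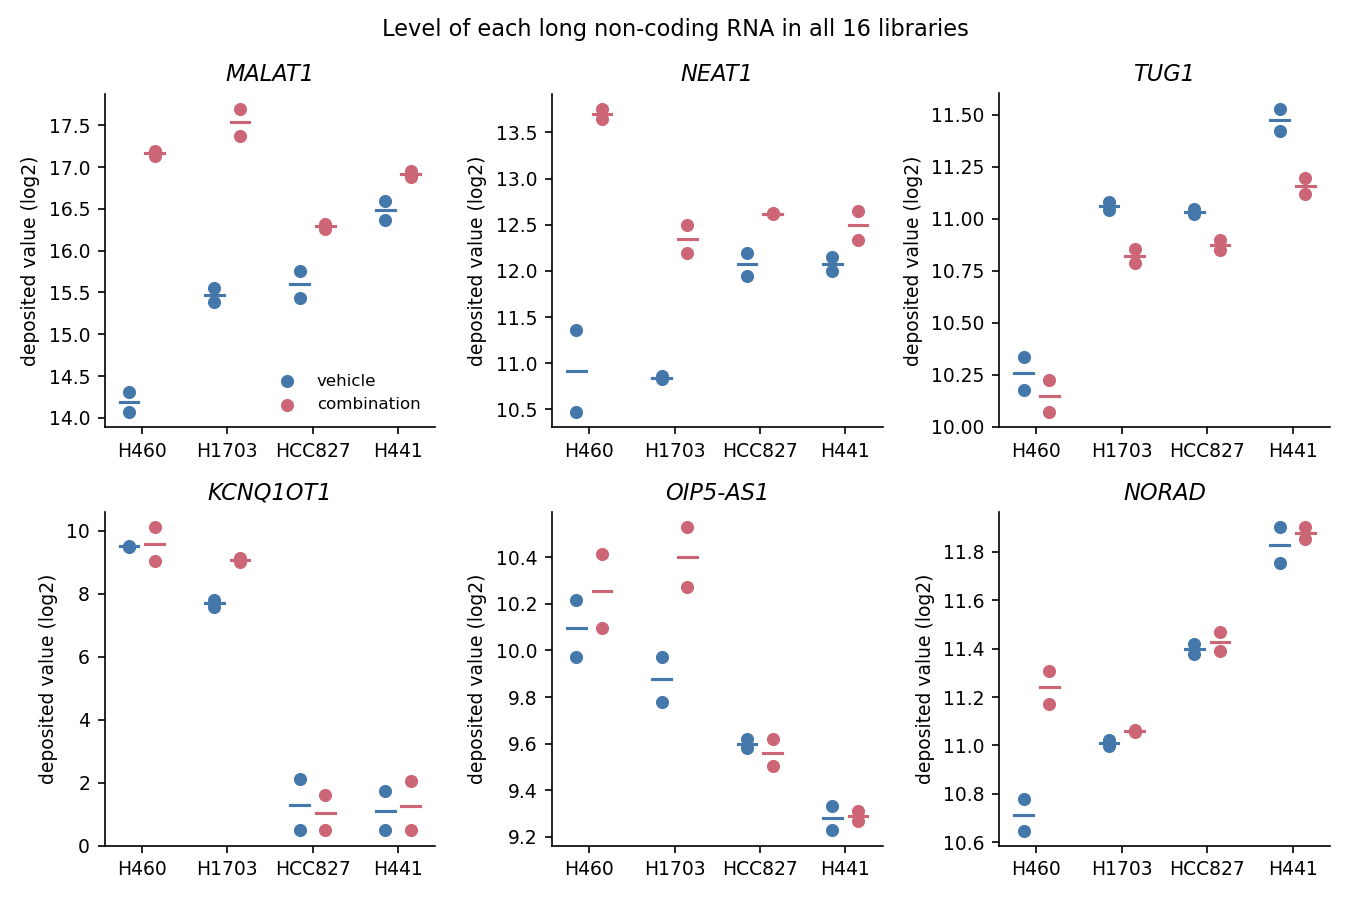
Deposited log2 value (y axis) of each of the 6 RNAs in all 16 libraries, by line (x axis) and treatment, with 1 point per library. MALAT1 and NEAT1 combination points lie above the vehicle points in all 4 lines, while KCNQ1OT1 lies at 0 to 2 reads in HCC827 and H441 with either treatment.

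TUG1 stood slightly lower with the combination. Its values on the log2 scale were 10.34 and 10.18 with vehicle and 10.23 and 10.07 with the combination in H460, and 11.08 and 11.04 against 10.79 and 10.86 in H1703. They were 11.05 and 11.02 against 10.90 and 10.85 in HCC827, and 11.53 and 11.42 against 11.12 and 11.20 in H441. The groups overlapped in H460 and did not in the other 3 lines. The difference was -0.11, -0.24, -0.16 and -0.32 (each ± 0.08, log2, limma SE) in H460, H1703, HCC827 and H441, a mean of -0.21 ± 0.04 over the lines. TUG1 was thus the only member with a negative difference in each of the 4 lines.

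KCNQ1OT1 separated the lines more than the treatments. In H460 it had 726 and 935 reads with vehicle and 1086 and 461 with the combination, and in H1703 193 and 318 against 520 and 654. In HCC827 it had 0 and 2 reads with vehicle and 0 and 1 with the combination, and in H441 1 and 0 against 0 and 2. Both lines were thus at or under the floor of 3 reads per group with either treatment, and no fold between treatments is given there. In H1703 the combination libraries did not overlap the vehicle libraries and held 2.58 times the normalised reads (95% counting interval 2.32 to 2.87), or 1.39 ± 0.60 on the log2 scale. In H460 the groups overlapped, with a difference of 0.08 ± 0.60 (log2), or -0.12 with each library centred on its median, and the 2 combination libraries were farther apart, at 10.12 and 9.05 (log2), than the 2 vehicle libraries at 9.48 and 9.53. The SE of KCNQ1OT1 was the largest among the members. It is pooled over all 8 groups, including those of HCC827 and H441 at 0 to 2 reads per library. In H1703 the SD (log2, n = 2) was 0.17 with vehicle and 0.10 with the combination.

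OIP5-AS1 stood higher with the combination in H1703. There its values were 9.78 and 9.97 with vehicle and 10.27 and 10.53 with the combination on the log2 scale, and the difference was 0.52 ± 0.11 (limma SE). That difference was 0.28 with each library centred on its median and 0.74 with quantile normalisation. In H460 the values were 9.97 and 10.22 against 10.10 and 10.42, which overlap. The difference there was 0.16 ± 0.11 and became -0.03 when each library was centred on its median. HCC827 had 9.58 and 9.62 against 9.62 and 9.50, and H441 9.23 and 9.33 against 9.31 and 9.27. These 2 lines overlapped, with differences of -0.04 and 0.01 (log2).

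NORAD differed mainly in H460. Its values on the log2 scale were 10.78 and 10.65 with vehicle and 11.17 and 11.31 with the combination there, a difference of 0.53 ± 0.07 (limma SE). With median centring that difference was 0.33. In H1703 the values were 10.998 and 11.02 against 11.05 and 11.06, which do not overlap but differ by only 0.05, and by -0.19 with median centring. HCC827 had 11.38 and 11.42 against 11.47 and 11.39, and H441 11.75 and 11.90 against 11.90 and 11.85. The groups overlapped in HCC827 and H441, with differences of 0.03 and 0.05 (log2).

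**Figure D2:**
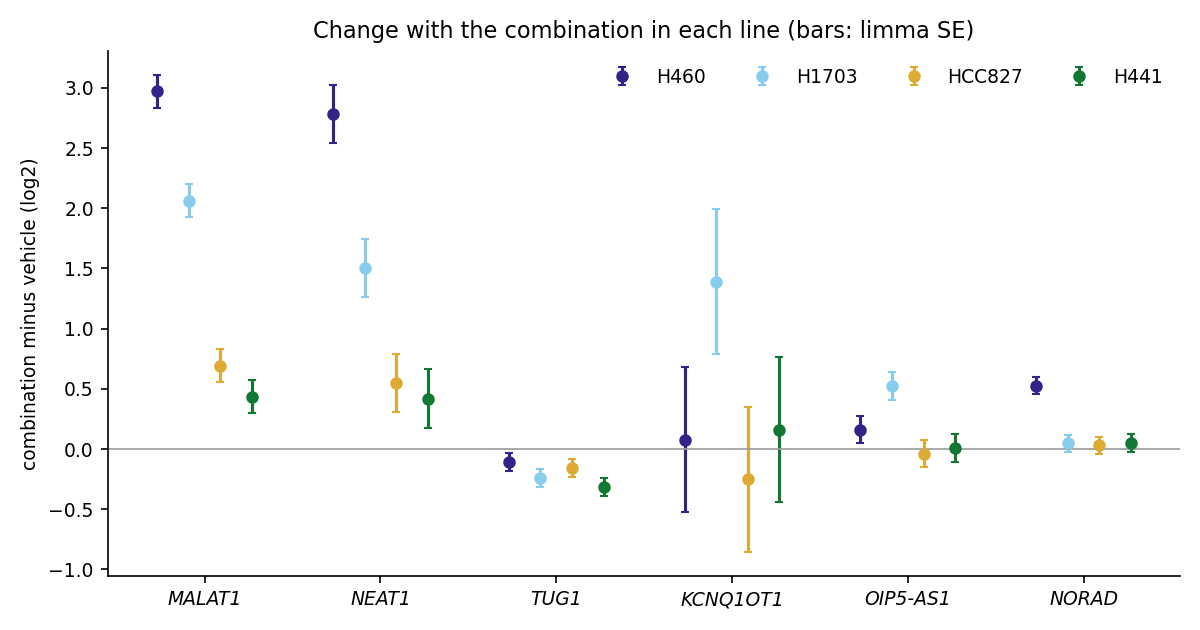
Combination minus vehicle on the log2 scale (y axis) for each RNA (x axis) and line, with limma standard errors as bars and a symbol per line. The H460 and H1703 points of MALAT1 and NEAT1 lie between 1.51 and 2.97, above the HCC827 and H441 points at 0.42 to 0.69, and TUG1 lies below 0 in each line.

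Counted by line, 3 members in H460 had combination libraries above both vehicle libraries, beside 31.6% of the 23968 tested genes. In H1703 it was 5 members beside 37.9%, in HCC827 2 beside 24.7%, and in H441 2 beside 22.5%. In the other direction 1 member, TUG1, lay wholly lower in H1703, HCC827 and H441, beside 29.4%, 25.4% and 22.4% of the genes, and none in H460, where 25.3% of the genes did. Nothing is read from these counts, since the members were chosen from this contrast. Over all genes limma called 26.7% (H460), 35.5% (H1703), 9.92% (HCC827) and 4.63% (H441) at an adjusted p under 0.05.

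The scaling between libraries moved these values. Centring each library on its median lowered all changes by 0.19 in H460 and 0.24 in H1703 on the log2 scale, which left MALAT1 at 2.78, 1.82, 0.67 and 0.45 in H460, H1703, HCC827 and H441. NEAT1 came to 2.59, 1.26, 0.52 and 0.43 and TUG1 to -0.30, -0.48, -0.19 and -0.30 in the same order. Over all genes the same centring took higher genes from 52.7% to 32.6% of those called in H460 and from 50.4% to 31.1% in H1703. Quantile normalisation gave NEAT1 2.51, 1.82, 0.64 and 0.37 and TUG1 -0.06, -0.01, -0.08 and -0.35. The fall of TUG1 in H1703 thus depended on the scaling. For MALAT1 quantile normalisation gave 2.67, 1.22, 0.25 and 0.00. However, it sets genes of equal rank to one value in each library, so it cannot show a change in a gene that keeps its rank near the top.

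Per length, MALAT1 exceeded the other members by more than an order of magnitude in every group except H460 with vehicle. In normalised reads per kb of exon it stood at 2126 ± 252 (SD, n = 2) with vehicle and 16631 ± 529 with the combination in H460, and at 5148 ± 432 and 21632 ± 3456 in H1703. In HCC827 it stood at 5650 ± 883 and 9082 ± 250, and in H441 at 10399 ± 1146 and 14020 ± 518. With vehicle the group means per kb ran in the same order in the 4 lines, MALAT1, NORAD, TUG1, NEAT1, OIP5-AS1 and KCNQ1OT1, but some neighbours were not separated. In H460 the place of NEAT1 depended on the library: it stood at 62.3 and 115.6 per kb, below OIP5-AS1 (79.1) in replicate 1 and above TUG1 (113.8) in replicate 2. In H1703 NEAT1 (80.6 ± 1.21) and OIP5-AS1 (74.1 ± 7.03) differed by less than the SD of OIP5-AS1. NEAT1 and TUG1 were close in HCC827, at 189 ± 22.2 and 206 ± 2.53, and their difference was within the SD of NEAT1. With the combination NEAT1 stood above TUG1 in the 4 lines, and in H460 above NORAD as well, at 585 ± 32.7 against 453 ± 30.4. In H441 the combination levels of NEAT1 and TUG1, 254 ± 39.5 and 225 ± 8.67, differed by less than the SD of NEAT1.

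MALAT1 also took a larger share of the reads in long non-coding RNA genes. Of the reads in the 5341 tested genes of this class it held 6.70% with vehicle and 33.1% with the combination in H460, and 15.7% and 42.8% in H1703. In HCC827 the share was 15.5% and 22.4%, and in H441 25.1% and 30.5%. By reads NEAT1 ranked 12 and 13 in the vehicle groups of H460 and H1703 and 2 and 3 with the combination, while it ranked 5 in HCC827 and 4 in H441 with either treatment. The ratio of MALAT1 to NEAT1 per kb was 31.3 and 19.9 with vehicle and 27.97 and 28.95 with the combination in H460, and 67.0 and 60.8 against 94.6 and 93.2 in H1703. It was 28.9 and 30.6 against 33.6 and 32.1 in HCC827, and 53.6 and 56.1 against 50.9 and 60.3 in H441. The groups overlapped in H460 and H441 and did not in H1703 and HCC827.

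**Figure D3:**
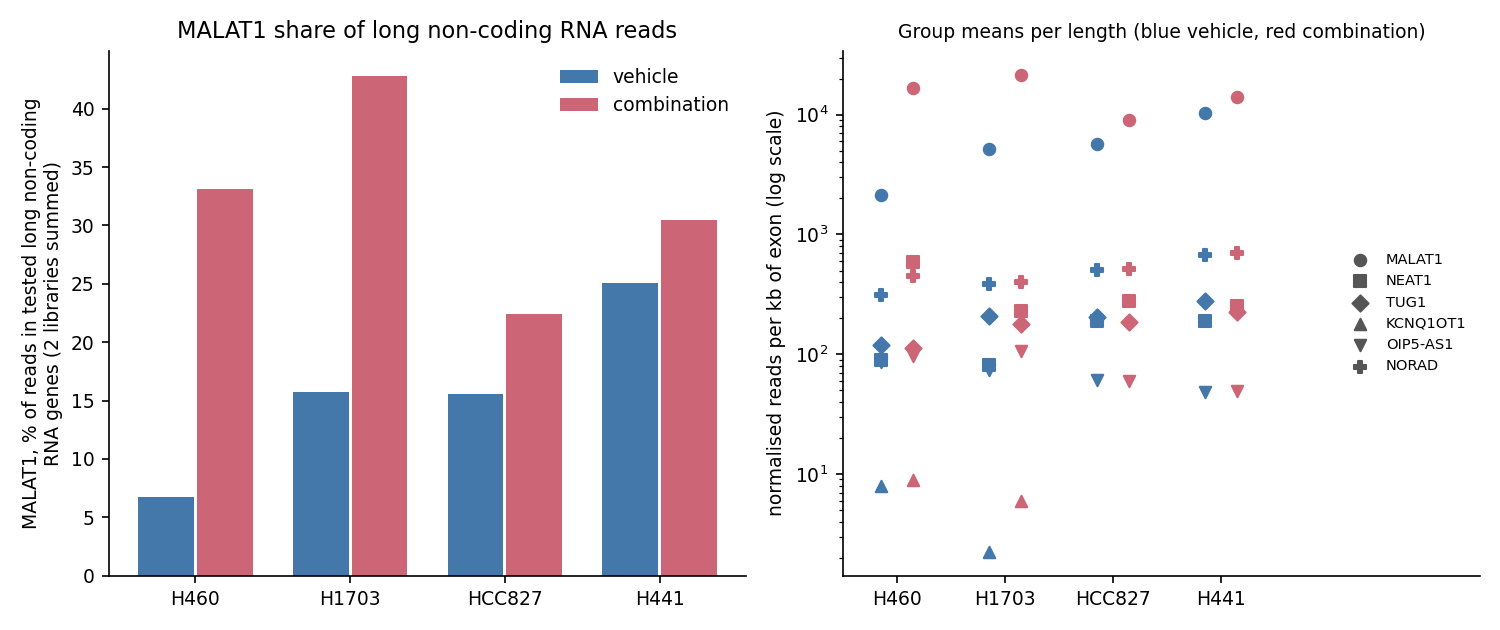
Left, bars give MALAT1 reads as a percent of reads in the 5341 tested long non-coding RNA genes, by line and treatment (2 libraries summed), from 6.70% to 33.1% in H460. Right, group means of normalised reads per kb of exon (log axis), with KCNQ1OT1 not drawn for HCC827 and H441, where it had 3 reads or fewer per group, and MALAT1 at the top in each group.

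The levels with vehicle alone compare the lines before treatment, and the 6 pairs of lines were tested in the same limma fit over 23968 genes. The vehicle values also enter the change with the combination for which MALAT1 and NEAT1 were picked. The p-values of these genes between lines are therefore not independent of that choice. MALAT1 was lower in H460 than in H1703 by 1.28 (log2, SE 0.14, adjusted p = 2.11e-05), than in HCC827 by 1.41 (adjusted p = 9.15e-06) and than in H441 by 2.29 (adjusted p = 1.29e-07). It was highest in H441, above H1703 by 1.01 (adjusted p = 0.000106) and above HCC827 by 0.88 (adjusted p = 0.000377). H1703 and HCC827, neighbours in the order, differed by 0.13 and did not pass (adjusted p = 0.484). NEAT1 divided the lines into a lower and a higher pair. H460 and H1703 were below HCC827 and H441 by 1.15 to 1.23 (log2, SE 0.24, adjusted p from 0.00168 to 0.00275). The size depended on the H460 libraries: H460 was below HCC827 and H441 with differences of -0.706 and -0.709 without its replicate 1 and -1.597 and -1.601 without its replicate 2, and both passed in either case. Within the pairs, H460 minus H1703 was 0.07 (adjusted p = 0.849), and HCC827 and H441 differed by less than 0.01 (adjusted p of 1). The H460 to H1703 value rested on single libraries: it was 0.52 (adjusted p = 0.00348) without H460 vehicle replicate 1 and -0.37 (adjusted p = 0.0305) without replicate 2.

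TUG1 and NORAD also had their lowest vehicle level in H460 and their highest in H441. TUG1 was 0.80 lower in H460 than in H1703 (log2, SE 0.08, adjusted p = 3.17e-08) and 1.22 lower than in H441 (adjusted p = 4.02e-11), while H1703 and HCC827 differed by 0.03 (adjusted p = 0.811, and 0.0386 with median centring). NORAD differed between each pair of lines: it was 0.30 lower in H460 than in H1703 (log2, SE 0.07, adjusted p = 0.00204), 0.39 lower in H1703 than in HCC827 (adjusted p = 0.000144) and 0.43 lower in HCC827 than in H441 (adjusted p = 6.03e-05). The H1703 to HCC827 call of NORAD did not pass with median centring (adjusted p = 0.0744). OIP5-AS1 ran the other way, highest in H460 and lowest in H441, by 0.82 (log2, SE 0.11, adjusted p = 3.94e-06). Of its neighbouring pairs, H460 and H1703 differed by 0.22 (adjusted p = 0.132), H1703 and HCC827 by 0.28 (adjusted p = 0.0500286, on the edge of the threshold) and HCC827 and H441 by 0.32 (adjusted p = 0.0275). That last call did not pass with median centring (adjusted p = 0.430), with neither trend nor robust settings (adjusted p = 0.115) or without any 1 of 3 libraries of these groups (adjusted p up to 0.161).

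KCNQ1OT1 showed the widest gap between lines. H460 with vehicle had 1661 reads over its 2 libraries and H1703 had 511, a ratio of 3.48 after scaling for depth (95% counting interval 3.15 to 3.85), and a limma difference of 1.81 ± 0.60 (log2, adjusted p = 0.0219). That call did not pass when any 1 of the 4 libraries was left out (adjusted p from 0.0528 to 0.0922) or with neither trend nor robust settings (adjusted p = 0.0620). Against HCC827 with its 2 reads the ratio was 656 for H460 (181 to 5424) and 189 for H1703 (51.98 to 1563). Against H441 with its 1 read it was 1323 for H460 (237 to 52294) and 380 for H1703 (67.98 to 15056). These intervals cover counting error only. HCC827 and H441 could not be told apart at this depth (adjusted p = 0.836). Across the 6 pairs of lines, limma called 4, 6, 6, 3, 6 and 4 of the 6 members, beside 46.4%, 50.3%, 54.2%, 50.7%, 52.1% and 44.7% of all tested genes, for H460 with H1703, HCC827 and H441, H1703 with HCC827 and H441, and HCC827 with H441.

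Across the 16 libraries the members are compared by Pearson's r of the deposited log2 values with no test, since the libraries share 4 lines and 2 treatments. MALAT1 and NEAT1, which were picked for their rise with the combination, had r = 0.78. Their r with NORAD was 0.49 and 0.43, and with TUG1, KCNQ1OT1 and OIP5-AS1 it lay between -0.21 and 0.17. KCNQ1OT1 and OIP5-AS1 had r = 0.88, and both ran against NORAD, with r of -0.82 and -0.78, and against TUG1, with r of -0.73 and -0.75. TUG1 and NORAD had r = 0.67. Each r of KCNQ1OT1 rests mainly on the gap between lines, since it had 0 to 2 reads in every library of HCC827 and H441.

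Among all tested genes, the 5 most like MALAT1 over the 16 libraries were PTPRH (r = 0.957), a receptor tyrosine phosphatase, ZFP69B (0.927), AL031985.3 (0.926), PLEKHG5 (0.922) and DNAJB9 (0.911), a chaperone of the endoplasmic reticulum. PTPRH differed by 2.50, 2.18, 0.98 and 0.64 (log2) with the combination in H460, H1703, HCC827 and H441, and DNAJB9 by 1.71, 1.98, 0.53 and 0.43. The 5 most like NEAT1 were STX1A (0.925), SEL1L (0.899), part of the machinery that clears misfolded proteins from the endoplasmic reticulum, CPNE5 (0.899), THSD4 (0.882) and AP1G2 (0.881). For TUG1 they were PON2 (0.981), ETV6 (0.978) and ZNF66 (0.974), and for OIP5-AS1 KLHL7 (0.967), TARBP1 (0.962) and PIKFYVE (0.959). For NORAD they were PPL (0.974), TMEM156 (0.967) and FAM167A (0.966). KCNQ1OT1 was most like genes that were also near 0 in HCC827 and H441, among them PDE10A (0.989) and LINC01139 (0.988).

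Transcripts of the proteins that assemble with NEAT1 and MALAT1 were often called lower with the combination. A link with the level of either RNA was not tested. The gene lists here and below were chosen with earlier results of these data known, so their counts are given as a description. Of the genes for 20 paraspeckle proteins, limma called 17 lower in H460 and 17 in H1703, against 14 in HCC827 and 5 in H441 (adjusted p under 0.05), and none higher, beside 12.6%, 17.6%, 5.5% and 1.86% of all tested genes called lower. Among protein-coding genes alone, 18.4%, 25.3%, 8.32% and 2.59% were called lower in these lines. The median change of the 20 genes was -0.50, -0.81, -0.40 and -0.16 on the log2 scale, where the median over all genes was 0.05, 0.08, 0 and 0. The median fall was thus larger in H1703 than in H460. SFPQ, which with NONO binds NEAT1 at the core of the paraspeckle, fell by 0.71, 1.64, 0.53 and 0.68 in H460, H1703, HCC827 and H441. HNRNPM fell by 1.08, 1.76, 0.71 and 0.73, and TARDBP, the RNA-binding protein TDP-43, by 0.67, 1.65, 0.54 and 0.41. NUDT21, a subunit of the cleavage factor that directs where NEAT1 is polyadenylated, fell by 0.96, 1.08 and 0.47 in the first 3 lines and stood at -0.29 in H441 (adjusted p = 0.0624). Without HCC827 vehicle replicate 2, 9 of the 20 were called lower in HCC827, and in H441 3 were without vehicle replicate 1, combination replicate 1 or combination replicate 2. With neither trend nor robust settings limma called 7 in HCC827 and 2 in H441, and fitting only the groups compared left 10 and 0. In the fit of the 2 H441 groups alone, SFPQ, HNRNPM and TARDBP did not pass there (adjusted p = 0.0809, 0.122 and 0.169).

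Of 14 speckle proteins and proteins known to bind MALAT1, 9 fell in H460 and 7 in H1703, 4 in HCC827 and 3 in H441, and 1 rose in H1703 and 1 in HCC827, beside the shares of all genes given above for the paraspeckle proteins and 17.9% and 4.42% called higher in these 2 lines, with medians of -0.46, -0.31, -0.13 and -0.02 (log2). The splicing factors SRSF1, SRSF2 and SRSF3 were called lower in each line, SRSF1 by 1.11, 1.52, 0.48 and 0.43 and SRSF2 by 1.00, 1.63, 0.66 and 0.65. Without HCC827 combination replicate 2, 1 gene of this list was lower in HCC827, and without H441 vehicle replicate 1, 1 was in H441. The rise in H1703 was lost without vehicle replicate 2 or combination replicate 1, and that in HCC827 without any 1 of its 4 libraries. SRSF1, SRSF2 and SRSF3 did not pass in H441 when only its groups were fitted (adjusted p = 0.107, 0.0809 and 0.160). Of 16 genes of RNase P, the tRNA 3′ nuclease ELAC2 and nuclear RNA decay, which act on the end and turnover of MALAT1, 7 fell in H460, 9 in H1703, none in HCC827 and 1 in H441, and 1 rose in each of the first 3 lines. Of all tested genes 12.6%, 17.6%, 5.5% and 1.86% were called lower in the 4 lines. In the first 3 lines 14.1%, 17.9% and 4.42% were called higher. POP1, the scaffold protein of RNase P, stood at -0.95, -2.47 and -0.54 in H460, H1703 and H441, each called, the last only in some settings (adjusted p = 0.0461, and up to 0.266 when a library was left out), and at -0.22 in HCC827 (adjusted p = 0.452). RPP30 fell by 0.66 in H460 and 0.66 in H1703.

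Of 6 protein partners of NORAD and OIP5-AS1, 4 fell in H460, 4 in H1703, 2 in HCC827 and none in H441, where none rose either. Limma called 12.6%, 17.6%, 5.5% and 1.86% of all tested genes lower in these lines. ELAVL1, the partner of OIP5-AS1, fell by 0.79 in H460 and 0.99 in H1703 and stood at -0.10 and 0.09 in HCC827 and H441. The NORAD partner RBMX, also counted among the paraspeckle proteins, fell by 0.66, 1.09 and 0.43 in H460, H1703 and HCC827. The Pumilio gene PUM2 stood at 0.04 in H460 and fell by 0.28 in H1703 (adjusted p = 0.0252), a call that did not pass with quantile normalisation, where it was -0.05 (adjusted p = 0.713). Of 5 transcription factors known to raise NEAT1 or MALAT1, 2 rose and 1 fell in H460, 1 and 2 in H1703, 1 and 1 in HCC827, and none and 1 in H441. Over all tested genes 26.7%, 35.5%, 9.92% and 4.63% were called in either direction, and nothing is read from counts in 5 genes. EPAS1, a hypoxia-inducible factor, rose by 0.90, 2.40 and 0.46 in H460, H1703 and HCC827 and stood at -0.33 in H441 (adjusted p = 0.0584). HIF1A, another, rose by 0.71 in H460 and fell by 0.69 in H1703, and STAT3 fell by 0.65 in H1703 and 0.39 in H441.

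The genes beside NEAT1 and MALAT1 were called in both directions, in counts too small to be read against the shares over all genes. Of 12 tested neighbours of NEAT1 and MALAT1, 3 rose and 3 fell in H460, 1 and 3 in H1703, 1 and none in HCC827, and 1 and 1 in H441. Of all tested genes 14.1% rose and 12.6% fell in H460, and 17.9% and 17.6% in H1703, 4.42% and 5.5% in HCC827, and 2.77% and 1.86% in H441. LTBP3, which binds latent TGF-beta, was called higher in each line, by 0.73, 0.41, 0.56 and 0.63, but did not pass in H1703 with median centring, at 0.16 (adjusted p = 0.341). FRMD8, encoded just before NEAT1 and picked out after its values were seen, rose by 2.22 in H460 and fell by 0.95 in H1703, where NEAT1 stood 2.78 and 1.51 higher. Of 11 neighbours of TUG1, OIP5-AS1 and NORAD, 3 rose and 3 fell in H460, 1 and 5 in H1703, none and 4 in HCC827, and none and 1 in H441. Beside the same shares over all genes, nothing is read from counts in 11 genes. The count of 4 lower in HCC827 came down to 0 in another fit. OIP5, the gene that OIP5-AS1 runs antisense to, fell in H460, H1703 and HCC827, at -1.15, -1.497 and -0.98, while OIP5-AS1 itself stood at 0.16, 0.52 and -0.04. The mitotic spindle gene NUSAP1 next to them fell by 1.90, 2.43 and 0.80.

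In the imprinted domain around KCNQ1OT1, 7 of 9 genes could be tested, with KCNQ1 and CDKN1C too low. In H1703, where KCNQ1OT1 stood higher, 2 of the 7 rose and 2 fell, in H460 1 fell, and none was called in HCC827 or H441. Limma called 35.5%, 26.7%, 9.92% and 4.63% of all tested genes in H1703, H460, HCC827 and H441. With 7 genes nothing is read from these counts, and a link with the level of KCNQ1OT1 was not tested. NAP1L4 fell by 0.74 in H460 and 0.54 in H1703, and CD81 fell by 1.39 in H1703. SLC22A18 and its antisense gene SLC22A18AS rose by 1.49 and 1.62 in H1703 on 26 reads or fewer in any library, and reads of the overlapping pair may not be separable. The second of these passed narrowly (adjusted p = 0.0495) and did not with median centring (adjusted p = 0.0927).

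Other long non-coding RNAs varied in both directions. Of 36 tested from a list of 38 known ones, 10 rose and 3 fell in H460, 14 and 3 in H1703, 4 and 1 in HCC827, and 1 and none in H441, beside 14.1%, 17.9%, 4.42% and 2.77% of all tested genes called higher. The count of 14 in H1703 was 9 without vehicle replicate 1 and 8 without combination replicate 1, and that of 4 in HCC827 was 1 or 2 without any 1 of its libraries. With median centring the count in H460 was 6 higher and in H1703 it was 8 higher and 8 lower. MIR100HG, a microRNA host gene, rose by 3.70, 1.21, 0.68 and 1.26 in H460, H1703, HCC827 and H441. LINC-PINT rose by 1.63 in H460 and 3.42 in H1703 and stood at 0.78 and 0.50 in HCC827 and H441. TMPO-AS1 fell by 1.53, 1.77 and 0.53 in H460, H1703 and HCC827.

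**Figure D4:**
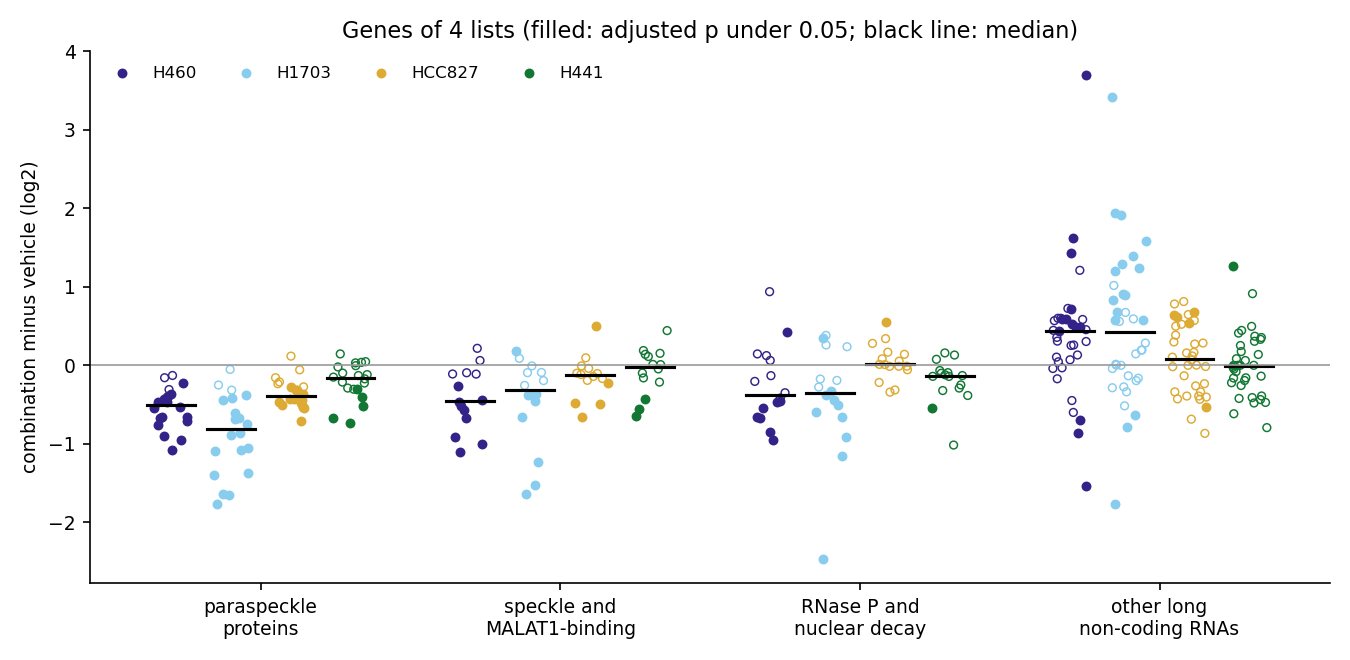
Combination minus vehicle on the log2 scale (y axis) for each tested gene of 4 lists (x axis), coloured by line, with filled points at an adjusted p under 0.05 and a black line at the median. Paraspeckle protein medians lie at -0.50, -0.81, -0.40 and -0.16 in H460, H1703, HCC827 and H441, and the other long non-coding RNAs spread to both sides of 0.

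Over the whole class of 5341 tested long non-coding RNA genes, 425 rose and 245 fell in H460, 657 and 348 in H1703, 108 and 67 in HCC827, and 49 and 43 in H441, with median changes of 0.10, 0.22, 0.02 and 0. The higher genes were 7.96%, 12.3%, 2.02% and 0.917% of the class in these lines, under the 14.1%, 17.9%, 4.42% and 2.77% over all tested genes, and the lower genes were 4.59%, 6.52%, 1.25% and 0.805%. Among the 524 of them with a mean of at least 100 normalised reads, which include all 6 members, 127 rose and 97 fell in H460 (24.2% and 18.5%) and 133 rose and 154 fell in H1703 (25.4% and 29.4%). In HCC827 54 rose and 35 fell (10.3% and 6.68%), and in H441 25 rose and 11 fell (4.77% and 2.1%). Of the RNAs made by RNA polymerase III, which like MALAT1 are abundant and stable, 4 of 8 could be tested, and only RN7SL2 was called, at 0.54 in H460 (adjusted p = 0.0487). That call did not pass with median centring (adjusted p = 0.168).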

How the data were processed

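Total RNA of 16 libraries was grouped by line and treatment from the labels. Per the submitters' processing notes, the authors used Trimmomatic, STAR and featureCounts with GRCh38 (hg38). Their versions and the annotation release were not given in the sources used here. Values that the authors deposited are variance-stabilised counts in log2 units, and undoing the transform gave whole reads within 0.02 for 100% of values.

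Genes with a mean at least 1 above the lowest value were tested, which kept 23968 and removed 4983. One limma fit (limma 3.58.1, R 4.3.3, trend and robust) of the 8 group means gave all differences, with Benjamini-Hochberg adjustment over all tested genes and a threshold of 0.05. Sequences, motifs and plots were handled in Python 3.11.15 (pandas 2.3.3, matplotlib 3.10.9). The members, the 12 lists and the tests were chosen with earlier results of these data known. Named list genes were up to 4 per list with the largest absolute mean change among those called in at least 1 line, and like genes were the 5 (MALAT1, NEAT1) or 3 with the highest Pearson r. A gene that this rule picks for KCNQ1OT1 and 1 gene of a list are not reported here. On simulated data the fit called 60% to 74% of genes changed 2-fold in a line and 22% to 40% of those changed 1.5-fold. The simulation had no differences between lines and changed a small set of genes alike in each line. Its rates may therefore not hold for the real libraries, where many more genes were called. Alternatives were other scalings, filters and fits, voom on the recovered reads, a replicate block, and each library left out.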

Additional observations from a re-analysis of the deposited data

Results flagged for a closer look

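None of the 6 RNAs is among the results singled out here, and each difference between lines below was not tested. In each case both combination libraries of at least 1 line lay above both vehicle libraries, and in at least 1 other line both lay below. By line, 22.5% to 37.9% of all tested genes lay wholly higher and 22.4% to 29.4% wholly lower. The share of all genes that went opposite ways in different lines was not counted. Some values below are small, and many were not called by limma. Among those not called were HIF1A in HCC827 and H441, EPAS1 in H441, STAT3 in H460 and SLC25A45 in H441. SELENOM in H1703 and H441, SLC22A18AS in HCC827 and H441, and CD81 in H460 and H441 were not called either. Nor were EPCAM in H460, HCC827 and H441, and CDH1 in HCC827 and H441. Among the factors known to raise NEAT1 or MALAT1, HIF1A was higher in H460 (0.71, log2) and H441 (0.13) and lower in H1703 (-0.69) and HCC827 (-0.21). EPAS1 was higher in H460 (0.90), H1703 (2.40) and HCC827 (0.46) and lower in H441 (-0.33), while STAT3 was higher in H460 (0.18) and lower in H1703 (-0.65), HCC827 (-0.25) and H441 (-0.39). Of the members' neighbours, SLC25A45 was at 1.17 in H460, 0.96 in H1703 and -0.31 in H441, on 47 reads or fewer, and SELENOM at 1.58 in H460, 0.98 in H441 and -0.25 in H1703. Near KCNQ1OT1, SLC22A18AS was at 1.62 in H1703, 0.68 in H441 and -0.71 in HCC827, on 14 reads or fewer, and CD81 at 0.13 in H441, -0.22 in H460 and -1.39 in H1703. Of the epithelial markers, EPCAM was at 1.72 in H1703, 0.20 in HCC827, 0.15 in H441 and -0.62 in H460, where H460 and H1703 had 11 reads or fewer, and CDH1 at 0.080 in H441, -1.56 in H1703 and -0.10 in HCC827.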

How the results depend on the processing

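The number of genes called depended on the fit in 3 lines. Fitting only the groups compared gave 3626 genes in H460, 1299 in HCC827 and 0 in H441, where 4622 genes had an unadjusted p under 0.05 and voom with limma called 1509 (adjusted p under 0.05), so calls in H441 rest on the spread pooled over lines. With neither trend nor robust settings the counts were 1183 in HCC827 and 364 in H441. Leaving out 1 library in turn gave 4886 to 6392 genes in H460, 6281 to 8785 in H1703, 1013 to 2740 in HCC827 and 499 to 1432 in H441, where a lone library was assumed to vary like the other groups. The lowest counts came without HCC827 combination replicate 2 and H441 vehicle replicate 2. The mean change of MALAT1 over the 4 lines, 1.54 as reported, was 1.03 with quantile normalisation. TUG1, at -0.21, was -0.32 with each library centred on its median and -0.12 with quantile normalisation, and NORAD, at 0.16, was 0.051 with median centring. With 1 library left out the mean changes stayed at 1.5002 to 1.58 for MALAT1, 1.203 to 1.43 for NEAT1 and -0.23 to -0.19 for TUG1. The NEAT1 difference between H460 and H1703 with vehicle was 0.52 without H460 vehicle replicate 1 and turned to -0.37 without replicate 2. Some calls of single genes did not pass without 1 library: SRSF1, SRSF3, OIP5, NUSAP1, EPAS1, MIR100HG, TMPO-AS1 and LTBP3 in HCC827, TARDBP, SRSF1, SRSF3, STAT3, POP1 and LTBP3 in H441, PUM2, LTBP3, SLC22A18 and SLC22A18AS in H1703, and RN7SL2 in H460. Replicate numbers did not pair the libraries: deviations of same-numbered libraries correlated at 0.03, 0.01, 0.03 and 0.02 in H460, H1703, HCC827 and H441. With the replicate number as a block, 6422 genes were called in H460, and OIP5-AS1 between H1703 and HCC827 with vehicle passed (adjusted p = 0.0291), as it did in 5 other alternatives and 7 fits without 1 library. No other member's call between vehicle lines changed with the block.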
